A study of Mus musculus with 6 samples.

Results

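The cytosolic heat shock proteins were followed through 10 genes chosen by symbol: Hsf1, Hspa1a, Hspa1b, Hspa8, Hsph1, Hsp90aa1, Dnajb1, Hspb1, Hspb7 and Cryab. All 10 were present among 35491 named entries, and all 10 passed the filter on low values. The tissue was gastrocnemius, a calf muscle made mostly of fast fibres, from 3 Ogg1Tg and 3 Control males, all 20 weeks old, on a C57BL/6J background, on chow and untreated, with 1 RNA-seq library each. Ogg1Tg mice carry a human OGG1-1a transgene fused to a mitochondrial translocation signal, under a CMV/AG promoter, which is not specific to muscle. Control mice are C57BL/6J. OGG1 removes oxidised guanine from DNA. No label speaks of litters or collection days, and p-values measure the spread between these mice, pooled in part over genes. Values below are gene read counts scaled by 1 factor per library, called scaled reads. Fold changes are Ogg1Tg over Control on the log2(value + 1) scale.

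Heat shock proteins are molecular chaperones: they hold, fold or hand on other proteins and are made in larger amounts when proteins unfold. HSF1, the main heat shock transcription factor, binds heat shock elements in promoters of the inducible members, such as the HSP70 genes Hspa1a and Hspa1b. In the folding cycle a J-domain protein such as Dnajb1 delivers a client to HSP70, Hsph1 (HSP110) exchanges the nucleotide, and HSP90 takes over later steps. Small heat shock proteins such as Hspb1, Hspb7 and Cryab need no ATP and, in striated muscle, are known for holding Z-disc and filament proteins.

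Promoters are shown for the 2 inducible HSP70 genes, whose values ran together across the libraries, for Hspb1, whose groups did not overlap, and for Hsph1, the only one of the 6 members with a promoter in the table to hold a complete heat shock element. Each is the 120 bases before the RefSeq start (for Hsph1 the upstream of 2 starts), 5′ to 3′ on the gene's strand, on GRCm38.p6, the build that corresponds to mm10. Capitals mark a pair of neighbouring, opposed units, GAANNTTC or TTCNNGAA. The stretches lie at chr17:34972157-34972276 (minus strand), chr17:34959239-34959358 (minus strand), chr5:135887799-135887918 (plus strand) and chr5:149636337-149636456 (minus strand).
Hspa1a: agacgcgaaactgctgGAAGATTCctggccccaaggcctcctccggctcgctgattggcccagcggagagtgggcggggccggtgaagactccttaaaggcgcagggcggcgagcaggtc
Hspa1b: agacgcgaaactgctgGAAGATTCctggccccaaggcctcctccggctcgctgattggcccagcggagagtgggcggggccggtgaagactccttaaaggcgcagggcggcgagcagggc
Hspb1: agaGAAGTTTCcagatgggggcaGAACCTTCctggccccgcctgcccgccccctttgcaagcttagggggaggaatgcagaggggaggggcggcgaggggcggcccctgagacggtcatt
Hsph1: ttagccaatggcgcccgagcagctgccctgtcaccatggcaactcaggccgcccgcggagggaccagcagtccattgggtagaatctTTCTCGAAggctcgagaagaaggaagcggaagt

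The Hspa1a and Hspa1b stretches each held 1 such pair, GAAGATTC at position -104, and over the 250 bases before the start the 2 promoters were identical at 247 positions. The Hspb1 stretch held 2 pairs, GAAGTTTC at position -117 and GAACCTTC at position -97. A complete element of 3 alternating units (GAA, any 2 bases, TTC, any 2 bases, GAA, on either strand) was searched for in the 300 bases around each start and was found in 1 of those 6 members, Hsph1, against 0.662% of all 27025 genes. In Hsph1 it read TTCTGGAAAGTTC at position 36 after the start, outside the stretch shown, which held the pair TTCTCGAA at position -33. The pair of units, a search added after that result was seen and contained in every complete element, was found in 4 of 6 members and in 17.0% of all genes. Among the chaperone network genes listed by role further on, 3 of 56 held the complete element and 20 of 56 held a pair. Hspb7 and Dnajb1 held neither. These matches are letters in a window and do not show binding. The search took only exact units at this spacing, so elements with a changed letter were not counted. A promoter without a match may still hold such an element.

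Libraries held 45189860 to 56126407 reads in named genes. Ogg1Tg replicate 3 stood apart: its Spearman correlation across genes with the others was 0.946 to 0.953, against 0.975 to 0.983 among the other 5. Skeletal muscle markers were high in every library, with Acta1, skeletal actin, at 429065 to 734469 scaled reads. The summed level of 10 lymphocyte and neutrophil markers was 7568 in Ogg1Tg replicate 3, 83.3 in each of the other Ogg1Tg libraries and 25.0 to 49.0 in Control, with 7 of the 10 at 0 in some library. That of 7 adipocyte markers was 11309 in Ogg1Tg replicate 3, against 3204 and 3515 in the other Ogg1Tg libraries and 3756 to 4205 in Control. The summed level of 10 muscle fibre markers was 10918370 in Ogg1Tg replicate 3, 15646908 and 19360661 in the other Ogg1Tg libraries and 15755611 to 19486580 in Control. The part of this composition in the values below was not tested. Mouse Ogg1 measured 176, 201 and 193 in the Ogg1Tg replicates, against 154, 225 and 193 in the Control replicates, and the human transgene was not measured apart from it. Fewer cells of a type and less RNA per cell cannot be told apart in such bulk RNA.

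None of the 10 genes passed the test between Ogg1Tg and Control muscle. With limma and Benjamini-Hochberg adjustment 0 of 10 passed an adjusted p of 0.05, where 0.545% of 23312 genes tested did. At an unadjusted p under 0.05 there was 1 member, Hspb1, higher, where 4.24% of all genes were higher at that level. With edgeR on recovered reads 0 of 10 passed, beside 0.532% of genes. With DESeq2, 1 of 10 passed, again Hspb1, beside 2.66% of genes. The median log2 fold change of the members was -0.12, against -0.025 for all genes tested, with 4 members above 0 and 6 below. The lowest was -0.43 for Hspa1a and the highest 0.51 for Hspb7. Without Ogg1Tg replicate 3 the median of the members was -0.02, against -0.043 for all genes. With quantile normalization it was 0.08, against -0.022 for all genes. Together the 10 genes held 0.161%, 0.125% and 0.153% of reads in named genes in the Ogg1Tg replicates, against 0.107%, 0.133% and 0.134% in the Control replicates.

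**Figure D1:**
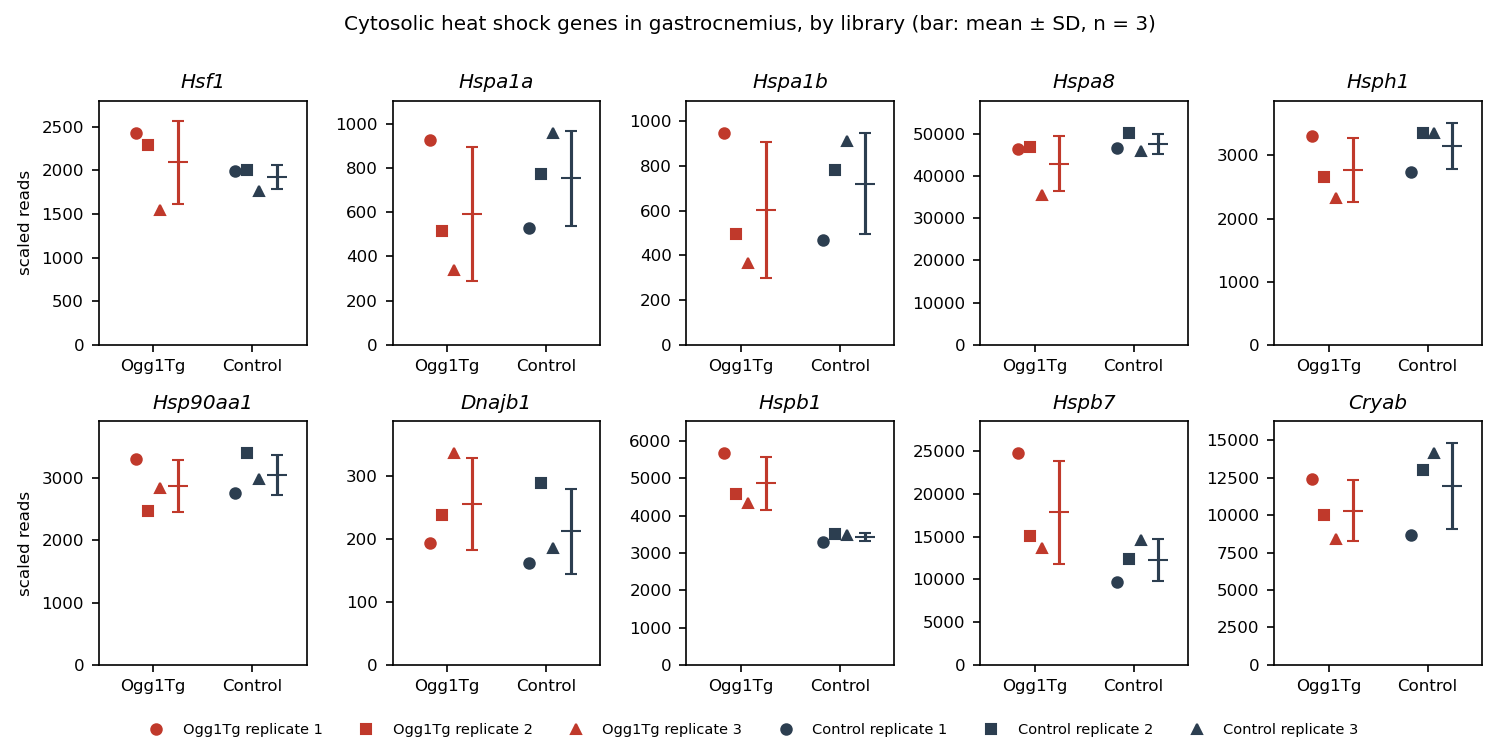
Scaled reads of each member in the 3 Ogg1Tg and 3 Control libraries, with a bar for mean ± SD (n = 3); each vertical axis starts at 0. Only for Hspb1 do the groups not overlap, with 4336 to 5679 in Ogg1Tg and 3307 to 3512 in Control muscle.

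Hsf1, the regulator, is on chromosome 15 from 76477422 to 76501913. It measured 2431, 2297 and 1550 scaled reads in Ogg1Tg replicates 1, 2 and 3, against 1994, 2010 and 1762 in the Control replicates. The Ogg1Tg libraries lay on both sides of the Control range. Its log2 fold change came to 0.10 ± 0.18 (SE; 95% interval -0.31 to 0.50; limma adjusted p = 0.865). Without Ogg1Tg replicate 3 it was 0.30, and without Ogg1Tg replicate 1 it was -0.02.

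Hspa1a and Hspa1b, the stress-inducible cytosolic HSP70 genes, lie next to each other on the minus strand of chromosome 17, from 34969190 to 34972156 and from 34956436 to 34959238. Hspa1a measured 928, 513 and 337 in Ogg1Tg replicates 1, 2 and 3, against 530, 772 and 961 in the Control replicates. Hspa1b measured 949, 497 and 367 in the Ogg1Tg replicates, against 470, 782 and 911 in the Control replicates. Both were high in Ogg1Tg replicate 1 and in Control replicates 2 and 3, low in the remaining libraries, and overlapped between the groups. Their log2 fold changes were -0.43 (95% interval -1.23 to 0.37) and -0.32 (-1.12 to 0.49), with limma adjusted p = 0.69 and 0.76. Without Ogg1Tg replicate 3 these were -0.09 and -0.02.

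The inducible pair varied more than any other members within the Ogg1Tg group. The coefficient of variation of Hspa1a was 51.2% in Ogg1Tg and 28.6% in Control muscle, and that of Hspa1b was 50.5% in Ogg1Tg and 31.4% in Control muscle. The highest library was 2.85 times the lowest for Hspa1a and 2.58 times for Hspa1b. It was 2.55 times for Hspb7, 2.08 times for Dnajb1 and 1.38 times for Hsp90aa1, the smallest ratio among the members. In Control muscle the coefficient of variation of Dnajb1, 31.7%, was above those of the pair. The intervals of Hspa1a and Hspa1b reach below -1 on the log2 scale, so they include a change of that size as well as 0.

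Hspa1a and Hspa1b are near copies, and their separate values are uncertain. Of the windows of 50 bases in the longest GENCODE M21 transcript of Hspa1a 66.3% also stood in a transcript of another gene, mostly Hspa1b, and of those of Hspa1b 62.3% stood in Hspa1a. Of windows of 100 bases the shares were 56.5% and 49.9%. Hspa1a also shares 564 bases of exon with Gm20481, which runs in the opposite direction and measured 0 in every library. Nothing in the labels tells whether reads were counted by strand, which leaves the Hspa1a values uncertain there too. The ratio of Hspa1b to Hspa1a was 1.02, 0.969 and 1.09 in the Ogg1Tg replicates, against 0.887, 1.01 and 0.948 in the Control replicates. Summed before the test, the 2 genes measured 1876, 1011 and 704 in the Ogg1Tg replicates, against 1000, 1554 and 1872 in the Control replicates. Tested as a sum, they had a log2 fold change of -0.37 (limma adjusted p = 0.72).

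Hspa8, the constitutive HSP70 that folds newly made proteins, lies on chromosome 9 from 40800984 to 40810087. It measured 46465, 47031 and 35509 in the Ogg1Tg replicates, against 46612, 50314 and 45942 in the Control replicates. Ogg1Tg replicate 3 was the low library and the other 5 lay close together. Its log2 fold change came to -0.16 ± 0.20 (SE; limma adjusted p = 0.79), with -0.03 without that library and 0.14 with quantile normalization. Per kilobase of exon the inducible pair together came to 6.03%, 3.20% and 2.96% of the Hspa8 level in the Ogg1Tg replicates, against 3.20%, 4.61% and 6.07% in the Control replicates. Of its windows of 50 bases 52.7% also stood in other genes, most of them in Gm15459, which has no value among the named entries. In addition, 3 small nucleolar RNA genes share 86 to 90 bases with its annotated exons.

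Hsph1, the HSP110 exchange factor of HSP70, is on chromosome 5 from 149614287 to 149636376. It measured 3315, 2662 and 2326 in the Ogg1Tg replicates, against 2732, 3358 and 3360 in the Control replicates. The order of the libraries was close to that of the inducible HSP70 pair, with Ogg1Tg replicate 1 and Control replicates 2 and 3 high. Its log2 fold change was -0.20 ± 0.16 (SE; limma adjusted p = 0.69), and -0.08 without Ogg1Tg replicate 3. None of its windows of 50 bases stood in another gene.

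Hsp90aa1, the stress-inducible HSP90, is on chromosome 12 from 110690605 to 110702728. It measured 3295, 2466 and 2840 in the Ogg1Tg replicates, against 2755, 3396 and 2973 in the Control replicates, and the groups overlapped. Its log2 fold change came to -0.09 ± 0.15 (SE; 95% interval -0.42 to 0.24; limma adjusted p = 0.845), with 0.03 with quantile normalization and 0.01 without Ogg1Tg replicate 2. Of its windows of 50 bases 58.5% also stood in other genes, mostly Gm12346, which measured 714, 505 and 597 in the Ogg1Tg replicates, against 592, 635 and 610 in the Control replicates. Hsp90ab1, the constitutive HSP90, measured 40076 ± 6614 in Ogg1Tg and 38469 ± 369 in Control muscle (SD, n = 3 each). Per kilobase of exon it was 14.8 to 23.1 times Hsp90aa1 over the 6 libraries.

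Dnajb1, the HSP40 partner of inducible HSP70, is on chromosome 8 from 83608193 to 83612653. It measured 194, 238 and 337 in the Ogg1Tg replicates, against 162, 290 and 187 in the Control replicates. Unlike the HSP70 pair and Hsph1, it was highest in Ogg1Tg replicate 3. Dnajb1 had a log2 fold change of 0.28 ± 0.28 (SE; limma adjusted p = 0.745), and of 0.06 without that library. Over the 6 libraries its Pearson r with Hspa1a was -0.51.

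Hspb1, the small heat shock protein HSP25, is on chromosome 5 from 135887919 to 135889563, with the promoter shown above. It measured 5679, 4590 and 4336 in the Ogg1Tg replicates, against 3307, 3512 and 3469 in the Control replicates. All 3 Ogg1Tg libraries lay above all 3 Control libraries, as for 7.03% of genes tested, and the coefficient of variation was 14.7% in Ogg1Tg and 3.15% in Control muscle. With a log2 fold change of 0.50 ± 0.13 (SE; 95% interval 0.19 to 0.80), a fold of 1.41, it did not pass (limma adjusted p = 0.21). With 1 library left out the log2 fold change ran from 0.38 to 0.57. It passed with DESeq2 (adjusted p = 0.0060), with quantile normalization (limma adjusted p = 0.047) and without Ogg1Tg replicate 3 when low genes were filtered on the other 5 libraries (limma adjusted p = 0.027). In those 2 limma fits 0.759% and 1.86% of genes were called. Without that library but with the filter on all 6, where 0.12% of genes were called, it did not pass (limma adjusted p = 0.167), nor did it with edgeR (adjusted p = 0.12). Over all settings tried its adjusted p ran from 0.00601 to 0.635.

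A pseudogene shares much of the Hspb1 sequence. Of the windows of 50 bases in Hspb1 51.7% also stood in the entry Hsp25-ps1. Hsp25-ps1 measured 183, 118 and 134 scaled reads in the Ogg1Tg replicates, against 105, 126 and 112 in the Control replicates, a small part of the Hspb1 level. The sources used here do not say how reads that match both were counted.

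Hspb7, a small heat shock protein of heart and skeletal muscle, is on chromosome 4 from 141420779 to 141425311. It measured 24755, 15063 and 13682 in the Ogg1Tg replicates, against 9707, 12389 and 14590 in the Control replicates. Ogg1Tg replicate 1 stood far above the rest and the groups overlapped. Hspb7 had a log2 fold change of 0.51 ± 0.25 (SE; limma adjusted p = 0.49), 0.25 without Ogg1Tg replicate 1 and 0.68 without Ogg1Tg replicate 3. Hspb1 and Hspb7 had a Pearson r of 0.88 over the 6 libraries.

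Cryab, alpha B-crystallin, a small heat shock protein that binds desmin and titin, is on chromosome 9 from 50751325 to 50756636. It measured 12439, 10046 and 8425 in the Ogg1Tg replicates, against 8689, 13049 and 14155 in the Control replicates. The highest were Control replicates 2 and 3 and Ogg1Tg replicate 1, as for the inducible HSP70 pair. Cryab had a log2 fold change of -0.20 ± 0.22 (SE; limma adjusted p = 0.76), with -0.07 without Ogg1Tg replicate 3 and 0.02 with quantile normalization. Cryab shares 252 bases of exon with Hspb2, which runs in the opposite direction, and nothing in the labels tells whether reads were counted by strand, so these values are uncertain where the 2 genes overlap.

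**Figure D2:**
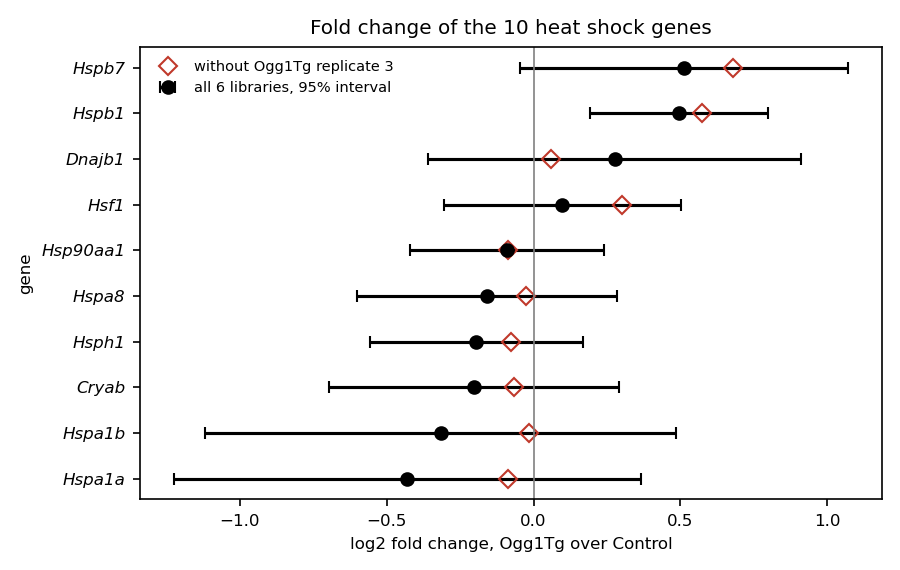
Log2 fold change of each member, Ogg1Tg over Control, with its 95% interval (filled circles, all 6 libraries) and the value without Ogg1Tg replicate 3 (open diamonds). The interval of Hspb1, 0.19 to 0.80, does not include 0, and those of the other 9 members do.

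Levels between members were compared per kilobase of exon, with every annotated exon base of a gene counted once. For Hsf1 this length was 7.099 kilobases, against 3133 bases in its longest transcript. For Hsph1 it was 7.266 kilobases, against 4764 bases. The places of such genes in the order can depend on the length used. Shared sequence is a further limit. Of windows of 50 bases, 52.7% of Hspa8, 51.7% of Hspb1 and 58.5% of Hsp90aa1 also stood in other genes, against 1.4% of Hspb7. How reads that match several genes were counted is not given, and its part in the order was not tested. Hspa8 was the highest, at a mean of 10540 scaled reads per kilobase over the 6 libraries, above 99.3% of the genes tested. Cryab followed at 7528, Hspb7 at 5428 and Hspb1 at 4024. Among these 4, the ranges over libraries of neighbours in the order overlapped. Within libraries, Hspa8 was above Cryab in 6 of 6, Cryab above Hspb7 in 5 of 6 and Hspb7 above Hspb1 in 6 of 6. A gap then separated Hspb1 from Hsp90aa1 at 751.5 per kilobase, whose highest library, at 864, lay under the lowest of Hspb1, at 3208. Hsph1 came next at 407, also with no overlap with Hsp90aa1. Hsph1, Hsf1 at 283, Hspa1b at 236 and Hspa1a at 227 overlapped each with the next. Dnajb1 was the lowest at 73.2 per kilobase, above 52.2% of the genes tested, and its highest library, at 105.2, lay under the lowest of Hspa1a, at 113.6.

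**Figure D3:**
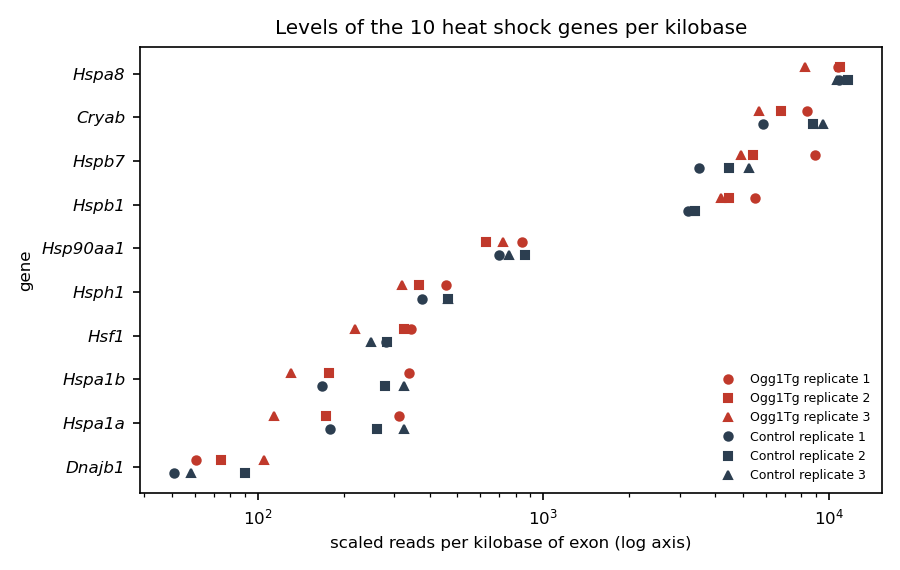
Scaled reads per kilobase of exon on a log axis for each member in the 3 Ogg1Tg libraries (upper row of each gene) and the 3 Control libraries (lower row). Hspa8, Cryab, Hspb7 and Hspb1 lie between 3208 and 11700, apart from the other 6 members, which lie between 50.6 and 864.

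Across the libraries Hspa1a, Hspa1b, Hsph1 and Cryab shared an order that did not follow genotype. Pearson r over the 6 libraries was 0.98 between Hspa1a and Hspa1b, 0.98 between Hspa1a and Hsph1 and 0.95 between Hspa1b and Cryab, as a description of 6 points that share their scaling. Myh2, the myosin of fast oxidative fibres, was picked out after its values were seen. It measured 407436, 200042 and 206847 scaled reads in the Ogg1Tg replicates, against 264820, 399513 and 414859 in the Control replicates. Like the inducible HSP70 pair and Cryab it was high in Ogg1Tg replicate 1 and Control replicates 2 and 3. Other fast fibre genes of the same marker list had another order. Myh4, the myosin of fast glycolytic fibres, measured 3253771, 4983847 and 2402914 in the Ogg1Tg replicates, against 5498760, 4183360 and 3674266 in the Control replicates. Myh4 and Actn3, the fast fibre actinin, were highest in Ogg1Tg replicate 2 and Control replicate 1, where Myh2 was low. The summed slow fibre markers, 9 genes, were 120495, 155108 and 97760 in the Ogg1Tg replicates, against 36929, 80852 and 92873 in the Control replicates. Myh7, the slow fibre myosin, measured 57593, 79545 and 50855 in the Ogg1Tg replicates, against 10585, 35642 and 35632 in the Control replicates. Of the 9 slow fibre markers 8 had log2 fold changes above 0 and none passed. At an unadjusted limma p under 0.05, 5 of the 9 were higher, beside 4.24% of all genes. For 5 of the 9 the groups did not overlap, all higher, beside 7.03% of all genes. The part of these fibre genes in the values of the members was not tested.

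The gene most like each member was sought among 12872 others with a mean of at least 100 scaled reads. Likeness was Pearson r of log2 values over the 6 libraries. For Hspb1 it was Shmt2, which encodes mitochondrial serine hydroxymethyltransferase, with r = 0.997. For Hspb7 it was Esrrg, a nuclear receptor gene, with r = 0.991, and for Hsph1 it was Tpm2, a tropomyosin gene, with r = 0.996. For Hsp90aa1 it was Hsp90b1, which encodes the HSP90 of the endoplasmic reticulum, with r = 0.984. For the rest it was Fars2 for Hspa1a, Klhl34 for Hspa1b, Ap5s1 for Hspa8, Tmem120b for Cryab, Mrps28 for Hsf1 and 4632404H12Rik for Dnajb1, with r between 0.983 and 0.999. With so many genes and 6 libraries, values of this size say little beyond a shared order.

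No gene of the wider chaperone network passed either. Of 69 listed genes 68 were in the files and 67 were tested, and with limma 0 passed an adjusted p of 0.05, higher or lower. At an unadjusted p under 0.05, 1 was higher and 5 were lower, beside 4.24% and 6.78% of all genes. The groups did not overlap for 4 higher and 10 lower genes, beside 7.03% and 11.3% of all genes. The median log2 fold change was -0.12, with 46 of 67 below 0, against -0.025 for all genes tested, with 12313 of 23312 below 0. Without Ogg1Tg replicate 3 the network median was 0.02, with 32 of 67 below 0, against -0.043 for all genes. With edgeR 0 of the 67 passed, and with DESeq2 1 did, the member Hspb1.

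Among the regulators, 4 genes beside Hsf1, none passed. Hsbp1, which binds and restrains HSF1, measured 2475 ± 474 in Ogg1Tg and 2544 ± 94.7 in Control muscle (SD, n = 3 each). Hsf5, a factor known from testis, was scarce, at 6.66 to 11.9 in Ogg1Tg and 1.39 to 5.60 in Control muscle, without overlap.

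Of the HSP70 family, 4 tested genes beside the members, none passed. All 7 tested genes of that list, members included, had log2 fold changes below 0, with 6 of 7 below 0 without Ogg1Tg replicate 3 and with either rescaling. Hspa1l, known from testis, measured 137, 93.9 and 80.5 in the Ogg1Tg replicates, against 173, 194 and 230 in the Control replicates. All its Ogg1Tg values lay below all Control values, the log2 fold change was -0.96 ± 0.26 (SE), and the gene did not pass (limma adjusted p = 0.21). Its start lies 547 bases from that of Hspa1a, with transcription in the opposite direction, and the Hspa1a values showed no such separation. Hspa2, also known from testis, measured 186 to 207 in Ogg1Tg and 232 to 275 in Control muscle (limma adjusted p = 0.49). Hspa12b, an HSP70 relative of endothelium, measured 861 ± 105 in Ogg1Tg and 893 ± 153 in Control muscle. Hspa4, of the HSP110 branch, measured 5798 ± 968 in Ogg1Tg and 5484 ± 258 in Control muscle (SD, n = 3 each).

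Among J-domain proteins, 9 genes beside Dnajb1, none passed. Dnajb5, the most abundant of them in scaled reads, measured 6469 ± 1979 in Ogg1Tg and 8084 ± 1369 in Control muscle. The groups of Dnaja1 did not overlap, with 2051 to 2372 in Ogg1Tg and 2437 to 2803 in Control muscle, nor did those of Dnajb2, with 551 to 859 in Ogg1Tg and 860 to 897 in Control muscle. Their log2 fold changes were -0.21 for Dnaja1 and -0.25 for Dnajb2 (limma adjusted p = 0.58 and 0.65), and without Ogg1Tg replicate 3 that of Dnajb2 was -0.04.

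The other small heat shock proteins, 5 tested genes, had 3 log2 fold changes above 0 and 2 below, and none passed. Hspb6, a small heat shock protein of muscle and the most abundant in scaled reads, measured 69391, 38266 and 36961 in the Ogg1Tg replicates, against 33095, 44650 and 41703 in the Control replicates. As for Hspb7, Ogg1Tg replicate 1 was the high library. Hspb2 measured 975, 937 and 567 in the Ogg1Tg replicates, against 1304, 1021 and 1113 in the Control replicates, lower without overlap, with a log2 fold change of -0.505 ± 0.21 (SE; limma adjusted p = 0.435), and of -0.25 without Ogg1Tg replicate 3. The Hspb2 values are uncertain for the same reason as those of Cryab. Hspb2 has 0.834 kilobases of exon, of which 252 bases are shared with Cryab, whose lowest library was at 8425. Cryaa, the lens crystallin, had a mean under 1 and was not tested.

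HSP70 cofactors, 8 genes, included 3 whose groups did not overlap, all lower, beside 11.3% of all genes. Bag4 measured 314 to 345 in Ogg1Tg and 397 to 521 in Control muscle, with a log2 fold change of -0.51 ± 0.165 (SE; limma adjusted p = 0.30). Bag1, an exchange factor of HSP70, measured 2198 to 3381 in Ogg1Tg and 3634 to 4053 in Control muscle (limma adjusted p = 0.44). Hspbp1, another exchange factor, measured 443 to 530 in Ogg1Tg and 539 to 600.1 in Control muscle (limma adjusted p = 0.66). Without Ogg1Tg replicate 3 the log2 fold change of Bag1 was -0.21, against -0.40 with it, and that of Hspbp1 -0.115, against -0.19. Bag3, which joins HSP70 to small heat shock proteins in muscle, measured 5137 ± 1418 in Ogg1Tg and 6198 ± 515 in Control muscle (SD, n = 3 each; limma adjusted p = 0.61).

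HSP90 co-chaperones, 15 genes, had 14 log2 fold changes below 0, but 7 below 0 without Ogg1Tg replicate 3. Unc45b, the myosin chaperone of muscle, measured 8993 ± 1891 in Ogg1Tg and 9796 ± 245 in Control muscle. Ahsa2, a relative of the HSP90 activator Ahsa1, measured 365 to 437 in Ogg1Tg and 444 to 537 in Control muscle, lower without overlap (limma adjusted p = 0.60). Ppid, a cyclophilin that binds HSP90, measured 1745 to 1913 in Ogg1Tg and 1376 to 1718 in Control muscle, higher without overlap (limma adjusted p = 0.62).

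The TRiC chaperonin, which folds actin and tubulin, had 7 of 9 subunits above 0 with all libraries and 9 of 9 without Ogg1Tg replicate 3, and none passed. Tcp1 measured 6134 ± 894 in Ogg1Tg and 5610 ± 568 in Control muscle (SD, n = 3 each). Cct4 measured 3926 to 4399 in Ogg1Tg and 3255 to 3730 in Control muscle, without overlap, with a log2 fold change of 0.25 (limma adjusted p = 0.48).

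**Figure D4:**
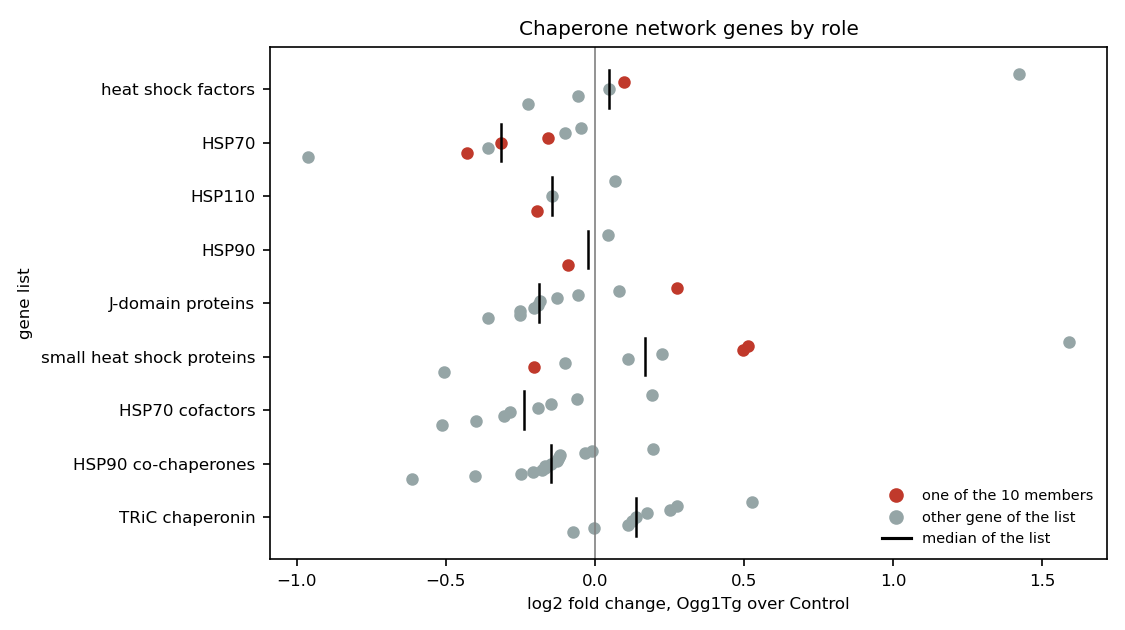
Log2 fold change, Ogg1Tg over Control, of the 67 tested chaperone network genes by role, with members in red, other genes in grey and a line at the median of each list. The HSP70 median is -0.32 (-0.07 without Ogg1Tg replicate 3) and the small heat shock protein median 0.17 (0.34 without it), and no gene passed limma.

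Partners of the small heat shock proteins at the Z-disc were read from a list of 6 genes, none of which passed. Flnc, filamin C, a known client of Hspb1, Hspb7 and Bag3, measured 146151, 105122 and 88003 in the Ogg1Tg replicates, against 65132, 59445 and 65925 in the Control replicates. As for Hspb1, all Ogg1Tg libraries lay above all Control libraries, with Ogg1Tg replicate 1 the highest. Flnc had a log2 fold change of 0.80 ± 0.26 (SE; limma adjusted p = 0.30). It passed with DESeq2 (adjusted p = 0.00044), with quantile normalization (limma adjusted p = 0.017) and without Ogg1Tg replicate 3 (limma adjusted p = 0.012, and 0.165 with the filter on all 6), and not with edgeR (adjusted p = 0.188). Des, desmin, a client of Cryab, measured 123177 ± 30269 in Ogg1Tg and 140712 ± 7875 in Control muscle. Synpo2 measured 19181 to 36031 in Ogg1Tg and 37113 to 41909 in Control muscle, and Myot 28781 to 50284 in Ogg1Tg and 52837 to 54912 in Control muscle, both lower without overlap (limma adjusted p = 0.48 and 0.59). Without Ogg1Tg replicate 3 their log2 fold changes were -0.26 and -0.15, against -0.51 and -0.40 with it.

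**Figure D5:**
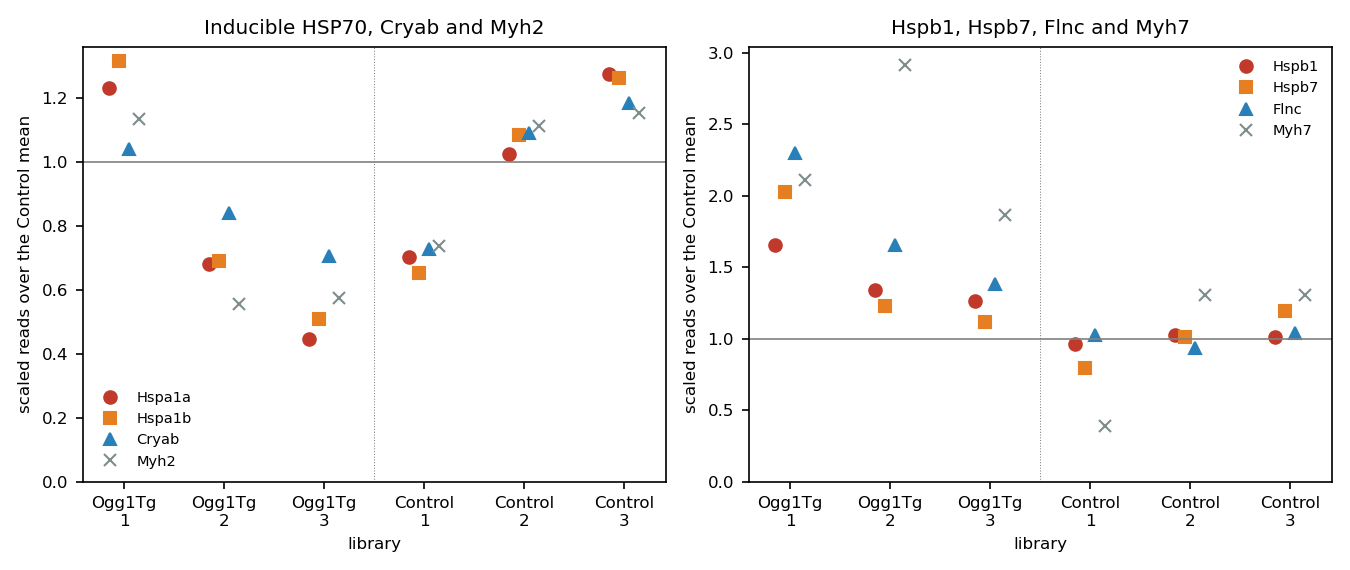
Scaled reads of each gene divided by its Control mean, in the 3 Ogg1Tg and 3 Control libraries. On the left, Hspa1a, Hspa1b, Cryab and Myh2 are high in Ogg1Tg replicate 1 and Control replicates 2 and 3; on the right, Hspb1 and Flnc are higher in every Ogg1Tg library than in any Control library, as is Myh7, while Hspb7 overlaps.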

How the data were processed

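Libraries were made from total RNA with a NuGen Ovation kit, per the labels' protocols. Trimmomatic, HTSeq, SAMtools and the mm10 build stand in the submitters' processing notes, without versions. These sources name no aligner. The deposited values, named FPKM by the files, are a signal: gene counts divided by 1 factor per library, whole multiples of 1 step within 0.01 of a read for 100% of values. Recovered reads are less certain for Ogg1Tg replicate 3, whose step of 1.006 nearly equals 1 read. The 1824 entries without a gene name, 2.38% to 3.54% of reads, were left out.

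Values were tested as log2(value + 1) with limma 3.58.1 in R 4.3.3 (variance trend, two-sided, Benjamini-Hochberg) for genes with a mean of at least 1, on all 6 libraries. P-values measure the spread between these mice, which limma takes partly from the gene itself and partly from a trend over all genes tested. edgeR 4.0.16 and DESeq2 1.42.0 on recovered reads, other filters, pseudocounts and scalings, blocking on replicate number and leaving out each library were alternatives. The test was checked on simulated data, with changes larger than any measured in the members. That check does not cover changes of the size seen in the members. Coordinates and exon lengths are from GENCODE M21 (GRCm38). The members and gene lists were chosen with earlier results of these data known. Named beside the members are, per list, the gene with the highest mean and up to 3 with the largest change whose groups do not overlap, plus the gene most like each member; 1 gene that this rule selects is not reported here; Acta1, Actn3, Myh2, Myh4, Myh7, Cryaa, Hsp25-ps1, Gm12346 and Gm15459 were added after their values or sequences were seen.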

Additional observations from a re-analysis of the deposited data

How the results depend on the processing

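Over the 18 settings tried, 6 of the 10 members kept the sign of their log2 fold change, and Hspb1 alone among them changed its call. The count of members called was 0 and became 1 with quantile normalization and with DESeq2, and ran from 0 to 1 with 1 library left out; the count over the chaperone network did the same. The 127 genes called became 46 without a variance trend, 619 with DESeq2 and 28 without Ogg1Tg replicate 3 with the filter on all 6 libraries, and ran from 35 to 425 with 1 library left out; the cause was not tested. With quantile normalization the log2 fold change turned to 0.137 for Hspa8, 0.03 for Hsp90aa1, 0.019 for Cryab, 0.041 for Hsbp1, 0.09 for Unc45b and 0.016 for Des. For Hsbp1 it was also 0.032 with edgeR and 0.011 with DESeq2, and for Hspa12b 0.022 with edgeR and 0.008 with median-of-ratios rescaling. Without Ogg1Tg replicate 3, with the filter on all 6, it was 0.112 for Hsbp1, 0.048 for Hspa12b, 0.041 for Unc45b and 0.001 for Des. With 1 library left out it ran from -0.024 to 0.30 for Hsf1, -0.195 to 0.013 for Hsp90aa1, -0.148 to 0.112 for Hsbp1, -0.129 to 0.09 for Hspa12b, -0.04 to 0.203 for Hspa4, -0.034 to 0.19 for Hsp90ab1, -0.071 to 0.384 for Hspb6, -0.254 to 0.041 for Unc45b and -0.343 to 0.001 for Des. None of these genes was called in the main comparison. Same-numbered libraries did not deviate together (r = -0.053, -0.005 and 0.031), so the numbers were not read as pairs; the fit with a replicate block called 102 genes and 0 members. Depth limits the scarce genes most: Hsf5 had 1.39 to 11.9 scaled reads a library, and the lowest value of any member was 162 (Dnajb1).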
